A study of Mus musculus with 6 samples.

Results

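Claudins and their partners at the tight junction were examined in cultured mouse keratinocytes with and without the DNA methyltransferase DNMT1. The genes are Cldn1, Cldn3, Cldn4, Cldn7, Cldn8, Cldn12, Cldn23, Ocln and Tjp1, which are 9 of the 43629 genes in the count table. They were picked by name, with their levels and the differences between the groups already known. The group differences of these 9 genes are therefore a description, and their adjusted p-values are given to place them among all genes and not as independent evidence. Epidermis was taken at postnatal day 3 from female mice, and keratinocytes were grown for 5 days in keratinocyte growth medium with 0.05 mM CaCl2 and 8% chelated serum on dishes coated with collagen and fibronectin. A legend of the study gives a shorter culture time for these libraries. The control group (n = 3) carried floxed Dnmt1 without Cre, on both alleles or on 1, and the allele state of each control library was not given in the sources used here. The Dnmt1Δ/Δep group (n = 3) carried floxed Dnmt1 on both alleles and K5-Cre, which is driven by the Keratin 5 promoter of basal keratinocytes, so that cells of other lineages in the cultures keep the gene. Poly(A)-selected RNA was sequenced.

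Tight junctions close the space between neighbouring epithelial cells. Claudins are small membrane proteins that pair across that space and set which solutes pass, and their tails bind scaffold proteins such as ZO-1, which tie the junction to actin. In epidermis the functional junctions lie in the granular layer, and mice without claudin-1 die of water loss through the skin. Keratinocytes kept in low calcium assemble few junctions, so transcript levels in these cultures describe supply and not assembled junctions.

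Cldn3 and Cldn4 are neighbours on chromosome 5 (GRCm38), with 39.3 kb between them, and each lies in 1 exon block. Cldn3 (ENSMUSG00000070473) is on the plus strand at chr5:134986214-134987472, and Cldn4 (ENSMUSG00000047501) is on the minus strand at chr5:134945119-134946934. Cldn1 (ENSMUSG00000022512) lies at chr16:26356642-26371841 on the minus strand. The RefSeq promoter windows of these 3 genes (GRCm38.p6, 250 bases before to 50 bases after the start) are shown because Cldn3 and Cldn4 were higher in every Dnmt1Δ/Δep library and Cldn1 was lower, and because CpG is the dinucleotide that DNMT1 methylates. They read 5′ to 3′ on the gene's strand. Capitals mark each CpG and each E-box CAGGTG or its reverse complement CACCTG, the hexamer bound by repressors of the Snail and ZEB families. The windows are chr16:26371790-26372089 (minus strand) for Cldn1, chr5:134985964-134986263 (plus strand) for Cldn3 and chr5:134946885-134947184 (minus strand) for Cldn4.
Cldn1: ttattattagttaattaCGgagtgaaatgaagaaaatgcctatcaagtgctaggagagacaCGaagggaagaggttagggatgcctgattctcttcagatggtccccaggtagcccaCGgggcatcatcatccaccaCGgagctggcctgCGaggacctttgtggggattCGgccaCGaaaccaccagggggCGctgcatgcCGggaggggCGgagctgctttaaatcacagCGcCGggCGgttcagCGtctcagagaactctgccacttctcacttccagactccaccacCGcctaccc
Cldn3: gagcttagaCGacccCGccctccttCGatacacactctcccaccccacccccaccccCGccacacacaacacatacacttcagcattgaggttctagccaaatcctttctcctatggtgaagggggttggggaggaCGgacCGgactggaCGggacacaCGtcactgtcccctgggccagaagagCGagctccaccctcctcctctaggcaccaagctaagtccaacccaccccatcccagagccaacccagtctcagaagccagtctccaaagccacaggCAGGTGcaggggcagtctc
Cldn4: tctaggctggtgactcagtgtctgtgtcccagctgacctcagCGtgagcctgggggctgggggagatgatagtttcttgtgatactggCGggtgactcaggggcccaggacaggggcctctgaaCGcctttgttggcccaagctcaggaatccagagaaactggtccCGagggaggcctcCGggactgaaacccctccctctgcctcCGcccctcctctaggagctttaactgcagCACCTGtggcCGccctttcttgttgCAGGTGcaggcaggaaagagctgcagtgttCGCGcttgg
The Cldn1 window held 15 CpG and no E-box. The Cldn3 window held 9 CpG and 1 E-box, which starts at base 282 of the window and so lies after the start site. The Cldn4 window also held 9 CpG, with E-boxes at bases 237 and 262, on either side of the start. Over all 32851 promoter windows the median was 7 CpG, 20.2% held a CAGGTG on either strand, and 2.88% held at least 2. A window was found for 7 of the 9 genes (11 windows, Cldn8 and Cldn23 without one), and 5 of the 11 held a CAGGTG. The CpG count ran from 7 in 1 of the Cldn7 windows to 31 in that of Tjp1, and the windows of Ocln (24 and 17) and Cldn12 (26, 23 and 10) lay between. The motif AACNGGTT of grainyhead-like factors, which regulate epithelial junction genes, was in none of the 11 windows and in 2.09% of all windows. These matches describe the letters only, since no methylation or binding was measured in these libraries.

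Reads on genes ran from 53433121 to 115526598 per library, and 3 reads correspond to between 0.0254 and 0.0558 CPM (counts per 1e6 counted reads, with library sizes scaled by TMM factors). Dnmt1 had 394, 379 and 324 CPM in control and 49.7, 54.3 and 50.7 CPM in Dnmt1Δ/Δep libraries, a log2 fold change of −2.83 (SE 0.11, edgeR adjusted p = 8.1e-05), which fits the labels. All fold changes are Dnmt1Δ/Δep over control. Of the 9 tight junction genes, 3 passed the threshold on adjusted p (0.05) with higher levels in Dnmt1Δ/Δep (Cldn3, Cldn4 and Cldn23) and 0 with lower levels. By the same rule 7.71% of the 16829 genes tested were higher and 1.66% were lower, or 9.36% in either direction. Cldn3 and Cldn23 also passed a change of 2-fold, as did 6.03% of all genes tested in the upward direction and 6.42% in either direction. All 3 Dnmt1Δ/Δep libraries lay above all 3 control libraries for 5 genes (18.2% of all genes tested) and below them for 1 gene (11.7%), and the groups overlapped for the other 3. At an unadjusted p of at most 0.05, edgeR gave 5 of the 9 genes as higher and 1 (Cldn1) as lower, where 23.6% of all genes tested passed in either direction, and DESeq2 gave 3 as higher and 1 (Cldn1) as lower on adjusted p, where it gave 9.24% and 3.27% of the 20126 genes with an adjusted p. The median log2 fold change was 0.43 over the 9 genes and −0.00089 over all genes.

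**Figure D1:**
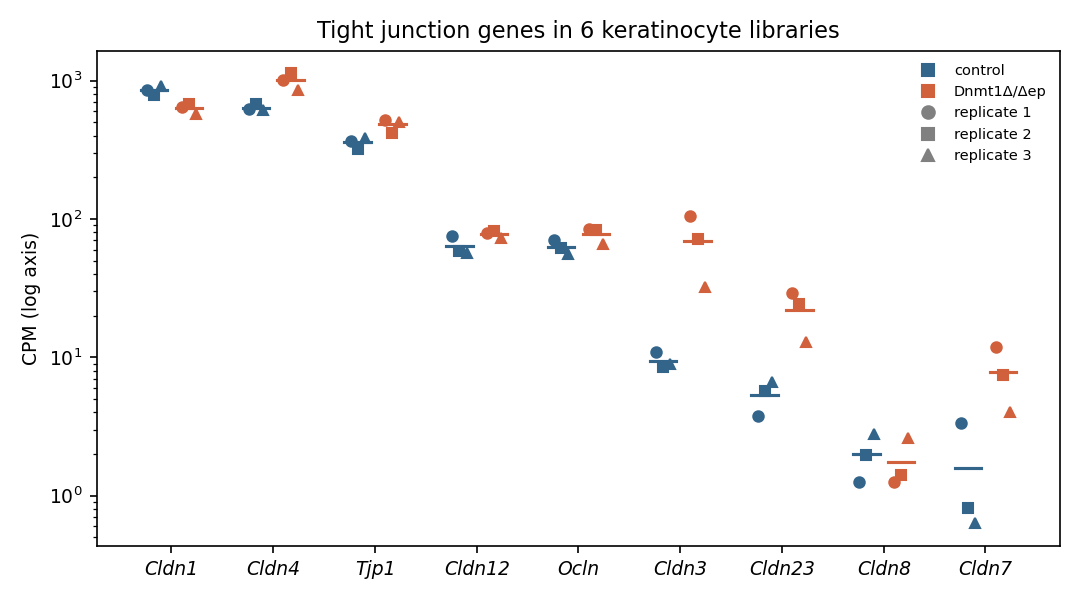
Level of each of the 9 tight junction genes in each library, as CPM on a log axis, with genes ordered by their control mean. Circles, squares and triangles are replicates 1, 2 and 3 of the control (blue) and Dnmt1Δ/Δep (orange) groups, and bars are group means (n = 3). The groups are apart for Cldn1, Cldn4, Tjp1, Cldn3, Cldn23 and Cldn7, and they overlap for Cldn12, Ocln and Cldn8.

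Cldn1 and Cldn4 supplied most claudin transcripts in both groups and differed in opposite directions. Cldn1, the claudin without which the epidermal water barrier fails, had 852, 782 and 915 CPM in control replicates 1, 2 and 3 and 647, 680 and 572 CPM in Dnmt1Δ/Δep replicates 1, 2 and 3. Every Dnmt1Δ/Δep library was below every control library. The means were 849 ± 66.6 and 633 ± 55.5 CPM (SD, n = 3), a fold of 0.745 (95% interval 0.621 to 0.894, log2 fold change −0.42, SE 0.11). The edgeR adjusted p of 0.059 lay just over the threshold, and DESeq2 put Cldn1 past it (log2 fold change −0.46, adjusted p = 0.019).

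Cldn4, a sealing claudin of many epithelia and of the upper epidermal layers, had 620, 675 and 611 CPM in control and 1016, 1131 and 861 CPM in Dnmt1Δ/Δep libraries. The groups did not overlap, and the lowest Dnmt1Δ/Δep value was above the highest control value. Cldn4 rose 1.58-fold (95% interval 1.29 to 1.93, log2 fold change 0.66, SE 0.12, edgeR adjusted p = 0.019). The rise was under 2-fold, and the call was lost when any of 4 of the 6 libraries was left out: Dnmt1Δ/Δep replicate 1 (adjusted p = 0.077), Dnmt1Δ/Δep replicate 2 (0.084), control replicate 2 (0.067) or control replicate 3 (0.058). The fold change itself stayed between 0.51 and 0.76 on the log2 scale over the 6 omissions.

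Cldn3 showed the widest separation of the 9 genes. This sealing claudin is typical of simple epithelia such as gut, airway and gland ducts. It had 10.9, 8.51 and 9.01 CPM in control replicates 1, 2 and 3 and 105, 72.0 and 32.2 CPM in the Dnmt1Δ/Δep replicates. The control libraries were close to each other, whereas the Dnmt1Δ/Δep libraries were spread widely and all stood above the controls. Cldn3 rose 7.35-fold (95% interval 3.83 to 14.1, log2 fold change 2.88, SE 0.40, edgeR adjusted p = 0.0061). It was past the threshold with any 1 library left out, with log2 fold changes from 2.46 to 3.22. In the annotation, 3.18% of its exon bases lie opposite the antisense gene Wbscr25, and reads there cannot be told apart where counting ignores strand, which the sources used here do not give.

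Cldn23, a claudin of gut and skin epithelia, rose from 3.76, 5.71 and 6.61 CPM in control to 29.1, 24.4 and 12.9 CPM in Dnmt1Δ/Δep libraries. No libraries of the 2 groups overlapped. The fold was 4.13 (95% interval 2.39 to 7.16, log2 fold change 2.05, SE 0.34, edgeR adjusted p = 0.012). Without control replicate 2 the adjusted p was 0.052 at a log2 fold change of 2.10, and it was past the threshold for each of the other 5 omissions. Cldn23 (ENSMUSG00000055976) lies at chr8:35824712-35826559 on the minus strand.

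Cldn7 (ENSMUSG00000018569, chr11:69964779-69967885, plus strand), a claudin of ducts and intestine that binds the adhesion molecule EPCAM, had 3.34, 0.811 and 0.633 CPM in control and 12.0, 7.45 and 4.02 CPM in Dnmt1Δ/Δep libraries. The groups did not overlap, but control replicate 1 stood above the other two controls and close to the lowest Dnmt1Δ/Δep library. These levels rest on 316, 79 and 34 reads in control and 713, 644 and 474 reads in Dnmt1Δ/Δep libraries. The fitted fold was 4.83 with a wide interval (1.58 to 14.8), the log2 fold change was 2.27 (SE 0.69), and the edgeR adjusted p was 0.089. With the replicate number as a block, which pairs libraries run on the same lane, the log2 fold change was 2.54 and the adjusted p was 0.0087. Without control replicate 1 these were 3.41 and 0.0084, and with no filter on low counts they were 2.23 and 0.013. Leaving out any of the other 5 libraries gave log2 fold changes of 1.83 to 2.59 and adjusted p-values of 0.10 to 0.26, none past the threshold.

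Cldn12 and Cldn8 did not pass the test, and their groups overlapped. Cldn12 (ENSMUSG00000046798, chr5:5489537-5514958, minus strand), an atypical claudin that lacks the usual tail motif for binding ZO proteins, had 75.6, 58.7 and 57.1 CPM in control and 79.1, 81.8 and 72.6 CPM in Dnmt1Δ/Δep libraries. Control replicate 1 alone was inside the Dnmt1Δ/Δep range, the log2 fold change was 0.29 (95% interval −0.02 to 0.59, edgeR adjusted p = 0.24), and without that library the values were 0.42 and 0.033. Cldn8 (ENSMUSG00000050520, chr16:88560828-88563183, minus strand), a claudin of kidney and colon epithelium, was near 1 to 3 CPM in every library, with 1.26, 1.96 and 2.81 CPM in control and 1.26, 1.41 and 2.63 CPM in Dnmt1Δ/Δep libraries. Its interval of the fold ran from 0.467 to 1.69 (log2 fold change −0.17, adjusted p = 0.86), so that a difference within these bounds was not detectable, and leaving out Dnmt1Δ/Δep replicate 1 or control replicate 3 turned the sign (0.02 and 0.14).

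Occludin and ZO-1 did not pass the threshold with edgeR. Ocln (ENSMUSG00000021638, chr13:100496507-100552718, minus strand) encodes occludin, the MARVEL-domain protein of the junction strands, and had 70.0, 62.0 and 55.6 CPM in control and 84.2, 83.6 and 65.9 CPM in Dnmt1Δ/Δep libraries. The groups overlapped by 1 library on each side, and the fold of 1.25 (95% interval 0.997 to 1.55) did not pass (log2 fold change 0.32, SE 0.14, edgeR adjusted p = 0.22). Tjp1 (ENSMUSG00000030516, chr7:65296165-65527781, minus strand) encodes ZO-1, the scaffold under the claudin strands, and had 365, 323 and 387 CPM in control and 521, 422 and 504 CPM in Dnmt1Δ/Δep libraries. All 3 Dnmt1Δ/Δep libraries were above the controls. The fold of 1.35 (95% interval 1.10 to 1.64, log2 fold change 0.43, SE 0.12) had an edgeR adjusted p of 0.073, and the replicate block put it past the threshold (adjusted p = 0.027).

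Within pairs of libraries that share a replicate number, Cldn3, Cldn4, Cldn7, Cldn12, Cldn23, Ocln and Tjp1 were higher in Dnmt1Δ/Δep in 3 of 3 pairs, and Cldn1 was lower in 3 of 3. Of all genes tested, 26.0% were higher and 25.3% were lower in 3 of 3 pairs. The differences within pairs varied most for Cldn23 (log2 ratios 2.95, 2.10 and 0.97 for pairs 1, 2 and 3) and Cldn3 (3.26, 3.08 and 1.84), and least for Tjp1 (0.52, 0.39 and 0.38) and Ocln (0.27, 0.43 and 0.24). For Cldn3, Cldn7 and Cldn23 alike, Dnmt1Δ/Δep replicate 1 had the highest level and replicate 3 the lowest. Cldn8 was level in pair 1 and lower in the other two. With the block, 5 of the 9 genes were higher at the threshold, where 10% of all genes tested were higher. Of these 5, Cldn3, Cldn7 and Cldn23 were also past 2-fold, as were 6.97% of all genes tested.

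**Figure D2:**
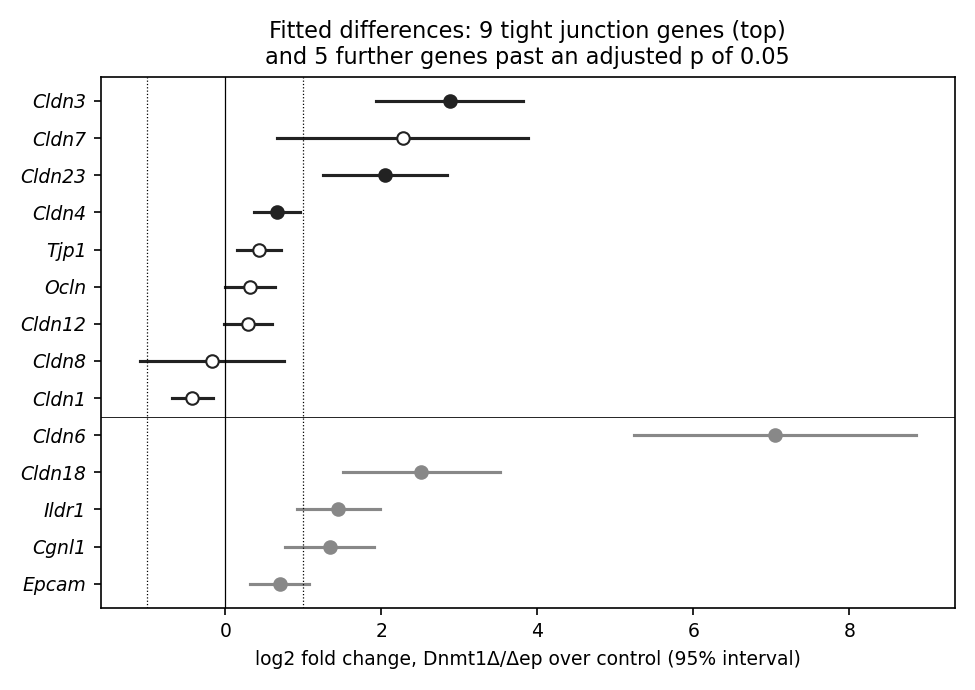
Fitted log2 fold changes (x axis, points) with 95% intervals (lines) from edgeR for the 9 tight junction genes (black, upper block) and for 5 further tight junction or partner genes past an adjusted p of 0.05 (grey, lower block). Filled points passed an adjusted p of 0.05, and dotted lines mark a change of 2-fold. Cldn3 (2.88), Cldn7 (2.27) and Cldn23 (2.05) sit to the right of the dotted line, the interval of Cldn7 is the widest of these, and Cldn6 (7.04) lies farthest out.

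Levels of different genes were compared per kilobase of exon (RPKM). In control the order was Cldn4 at 349.8 ± 19.0 RPKM (SD, n = 3), Cldn1 at 175 ± 13.8, Tjp1 at 45.9 ± 4.21, Cldn12 at 15.1 ± 2.42, Ocln at 14.8 ± 1.71, Cldn3 at 7.53 ± 1.01, Cldn23 at 2.90 ± 0.787, Cldn8 at 0.853 ± 0.330 and Cldn7 at 0.819 ± 0.778. The ranges of neighbours in this order overlapped for Cldn12 with Ocln and for Cldn8 with Cldn7, and the others were apart. In Dnmt1Δ/Δep libraries Cldn4 (552 ± 74.6) and Cldn1 (131 ± 11.5) were again the highest. Cldn3 stood above Ocln and Cldn12 at 55.4 ± 28.9 RPKM, and its range overlapped that of Tjp1 (61.7 ± 6.80), with Ocln (18.4 ± 2.47) and Cldn12 (18.4 ± 1.12) overlapping each other. Cldn23 followed at 12.0 ± 4.50, Cldn7 at 4.01 ± 2.05 and Cldn8 at 0.749 ± 0.318.

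The make-up of the claudin pool differed accordingly. Summed over all 33 claudin genes in the table, the level was 548, 558 and 552 RPKM in control and 831, 865 and 648 RPKM in Dnmt1Δ/Δep libraries. Cldn4 took 62.2%, 66.6% and 61.0% of that sum in control and 67.3%, 72.0% and 73.1% in Dnmt1Δ/Δep libraries. The share of Cldn1 was 32.1%, 28.9% and 34.3% against 16.1%, 16.2% and 18.2%, without overlap between the groups. Cldn3 took 1.58%, 1.21% and 1.30% in control against 10.03%, 6.62% and 3.95%. The ratio of Cldn4 to Cldn1 in RPKM was 1.94, 2.30 and 1.78 in control and 4.19, 4.43 and 4.01 in Dnmt1Δ/Δep libraries. This ratio is taken within a library, so that the scaling of libraries does not enter it, and it varied little within each group. Its size rests on the merged exon lengths (4841 bases for Cldn1 and 1816 for Cldn4) and does not count molecules. Before division by length, Cldn1 was above Cldn4 in control (means of 849 and 635 CPM).

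**Figure D3:**
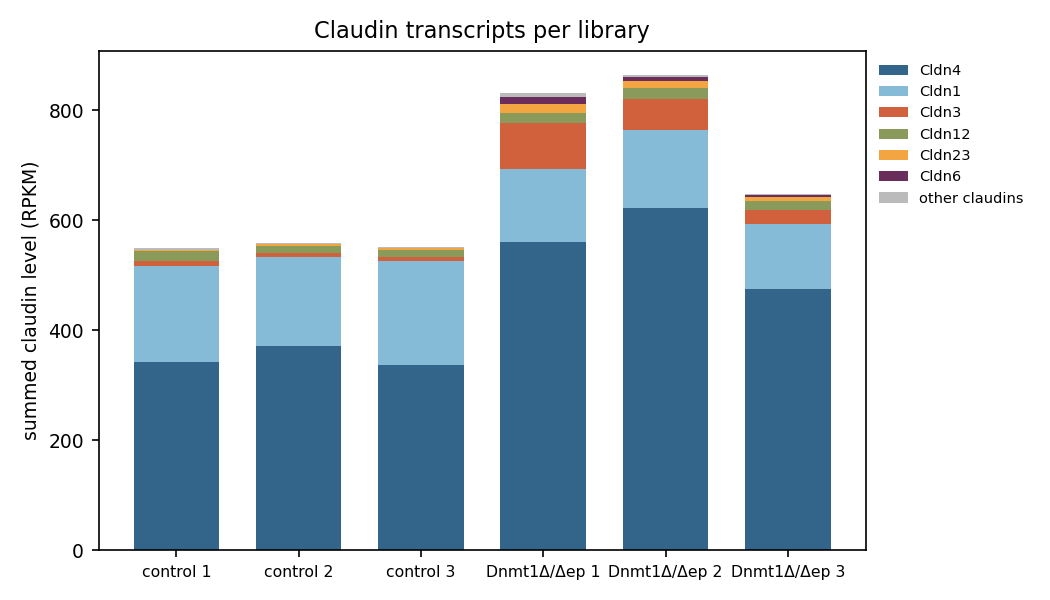
Summed level of all claudin genes in each library (y axis, RPKM), stacked by gene, for control replicates 1 to 3 and Dnmt1Δ/Δep replicates 1 to 3. Bars start at 0. The Cldn1 segment is shorter in each Dnmt1Δ/Δep library (118 to 140 RPKM) than in any control library (161 to 189 RPKM), the Cldn4 and Cldn3 segments are taller, and the Dnmt1Δ/Δep replicate 3 bar is the lowest of its group at 648 RPKM.

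Beyond these 9 genes, 57 further tight junction genes in 5 lists were examined, of which 33 had enough reads to be tested. Of the 33, 4 rose and 0 fell past that threshold, where 7.71% and 1.66% of all genes tested did, and their median log2 fold change was 0.15. Of those that rose, Cldn6 and Cldn18 had enough reads to be tested only through their Dnmt1Δ/Δep libraries, where they were high. Both could be called only as higher, and their adjusted p-values are a description. Of the 33, DESeq2 gave 6 as higher and 0 as lower (9.24% and 3.27% of all genes). At an unadjusted p of at most 0.05 edgeR gave 10 and 1, beside the 23.6% of all genes tested that passed it in either direction. Among the 26 other claudins, 3 were tested, and 16 had at most 3 reads in every library. Cldn6, a claudin of embryonic epithelia, had 17, 4 and 3 reads in control and 1311, 1017 and 586 reads in Dnmt1Δ/Δep libraries. The controls had 0.180, 0.0410 and 0.0558 CPM, of which replicates 2 and 3 were near the floor of 3 reads, and the Dnmt1Δ/Δep libraries had 22.0, 11.8 and 4.97 CPM (log2 fold change 7.04, SE 0.77, edgeR adjusted p = 0.0023). With 1 library left out the log2 fold change of Cldn6 ran from 6.43, without Dnmt1Δ/Δep replicate 1, to 8.06, without control replicate 1. Cldn18, a claudin of stomach and lung, rose from 0.169, 0.133 and 0.0931 CPM to 1.12, 0.694 and 0.525 CPM (log2 fold change 2.51, adjusted p = 0.013). The third, Cldn15, was lower in each Dnmt1Δ/Δep library but did not pass (log2 fold change −0.59, adjusted p = 0.42).

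Of the 5 MARVEL and angulin genes tested, several of which serve tricellular contacts, 1 rose (2 were higher with DESeq2, and 2 at an unadjusted p of at most 0.05), where 7.71% of all genes tested were higher. With DESeq2 9.24% of all genes were higher, and 23.6% passed the unadjusted p in either direction. These shares also apply to the plaque genes below. Ildr1, which encodes angulin-2, went from 6.94, 7.40 and 6.09 CPM to 22.5, 20.5 and 12.7 CPM (log2 fold change 1.45, SE 0.23, edgeR adjusted p = 0.0096). The more abundant Lsr (angulin-1) and Marveld2 (tricellulin, which lies 43.2 kb from Ocln) had log2 fold changes of 0.09 and 0.12 and did not pass. In the annotation, 44.7% of the exon bases of Lsr lie opposite antisense genes, so its reads are uncertain where counting ignores strand. Of the 12 plaque genes examined, 1 rose (2 with DESeq2, and 3 at an unadjusted p of at most 0.05), near the 7.71% of all genes. Cgnl1, the actin-linked paralogue of cingulin, had 3.29, 3.94 and 3.44 CPM against 12.3, 7.64 and 7.03 CPM (log2 fold change 1.34, adjusted p = 0.017). The 2 most abundant of these plaque genes, Ybx3 and Amotl1, had log2 fold changes of 0.00 and 0.26 and did not pass.

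None of the 5 junctional adhesion molecules and of the 8 polarity genes tested passed an adjusted p of 0.05 with edgeR or with DESeq2. At an unadjusted p of at most 0.05 edgeR gave 2 of the first list as higher and, of the second, 1 as higher and 1 as lower. Of all genes tested, 23.6% passed that unadjusted p in either direction, and DESeq2 gave 9.24% of its genes as higher. F11r (JAM-A) and Cxadr, the 2 most abundant of the first list, had log2 fold changes of 0.16 (adjusted p = 0.35) and −0.06 (adjusted p = 0.86; 9.46% of its exon bases lie opposite antisense genes), and Prkci (atypical protein kinase C iota) had −0.21 (adjusted p = 0.21). Of 14 tested partners and regulators of claudins, 1 rose, Epcam (2 with DESeq2, and 5 at an unadjusted p of at most 0.05), near the 7.71% of all genes. Its product binds claudin-7 and claudin-1 at the membrane, and it had 153, 123 and 110 CPM in control and 223, 229 and 172 CPM in Dnmt1Δ/Δep libraries (log2 fold change 0.69, SE 0.16, edgeR adjusted p = 0.040). The most abundant gene of that list, the membrane protease gene St14, had a log2 fold change of 0.39 (adjusted p = 0.072), and Klf4, a transcription factor of barrier formation and next in level, had 0.49 (adjusted p = 0.054). Without control replicate 2, Cldn6 and Ildr1 passed and Cldn18, Cgnl1 and Epcam did not, and Epcam was past the threshold for 2 of the 6 omissions.

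**Figure D4:**
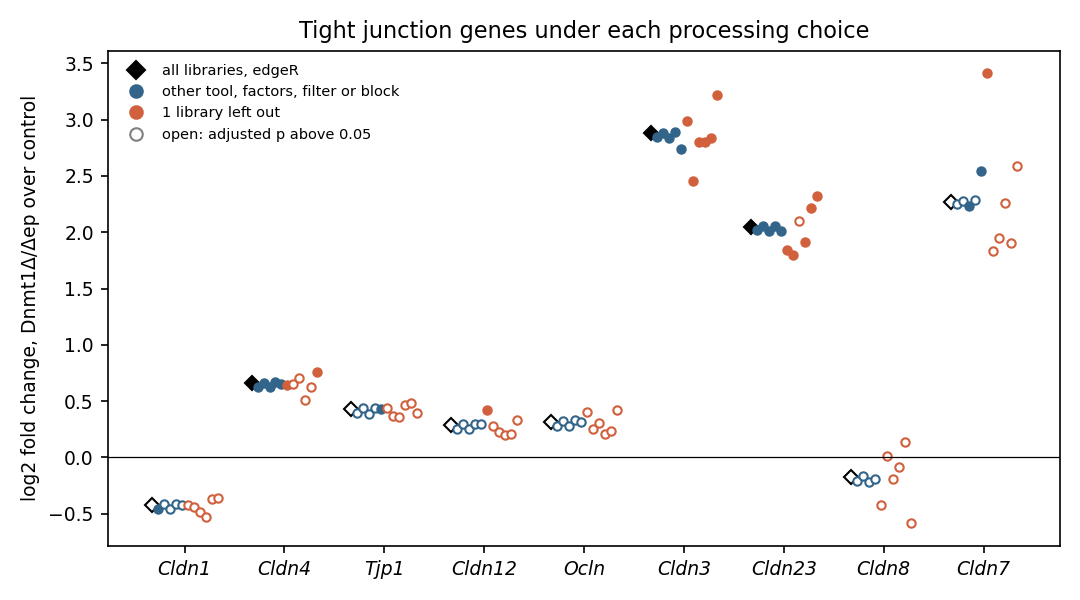
Log2 fold change (y axis) of the 9 tight junction genes with all libraries in edgeR (black diamonds), with another tool, scaling, filter or the replicate block (blue), and with 1 library left out (orange). Filled symbols passed an adjusted p of 0.05. All symbols of Cldn3 are filled, 2 of the 6 orange symbols of Cldn4 are filled, and the symbols of Cldn8 lie on both sides of 0.

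The cultures were checked for their cell types with lists of marker genes. The basal keratinocyte genes were the highest list, and their summed level was lower in Dnmt1Δ/Δep (21800 to 22221 CPM) than in control libraries (28816 to 32701 CPM), with 3 of 6 lower at the threshold in edgeR, as in DESeq2 and at an unadjusted p of at most 0.05, where 1.66% of all genes tested were lower (Krt5, Krt14 and Col17a1, log2 fold changes −0.50, −0.61 and −0.55). Krt5 and Krt14 made up most of that sum, and 2 of the 6 genes had positive log2 fold changes. Of 9 tested suprabasal genes 0 passed with edgeR (2 higher and 3 lower at an unadjusted p of at most 0.05, and 2 and 3 with DESeq2). Of all genes tested, 23.6% passed the unadjusted p in either direction, and DESeq2 gave 9.24% as higher and 3.27% as lower. The suprabasal genes did not share a direction, with log2 fold changes of 1.61 for Ivl, 1.70 for Lor and −2.30 for Krt1. Krt1 varied from 53.2 to 530 CPM in control and lay between 59.2 and 66.1 CPM in Dnmt1Δ/Δep libraries, and the list's sum was 1213 to 2269 against 954 to 1611 CPM. The keratins of simple epithelia rose for 3 of 4 genes in edgeR, and for 4 in DESeq2 and at an unadjusted p of at most 0.05, where 7.71% of all genes tested were higher (Krt8, Krt18 and Krt7, log2 fold changes 3.36, 2.67 and 1.47), with sums of 124 to 210 against 382 to 636 CPM. As for Cldn3, Cldn7 and Cldn23, Krt8 and Krt18 were highest in Dnmt1Δ/Δep replicate 1 and lowest in replicate 3, with 19.2, 13.4 and 7.82 CPM of Krt8 in replicates 1, 2 and 3. This order is not particular to these genes. Lor had it (55.6, 29.1 and 16.7 CPM), as did Krtdap (413, 332 and 239 CPM), which was lower than in control. The share of all genes with this order was not counted. In such bulk libraries, more cells of a type and more RNA per cell cannot be told apart.

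Genes of other lineages were also detected. Melanocyte genes summed to 224 to 573 CPM in control and 688 to 912 CPM in Dnmt1Δ/Δep libraries, with 0 of 7 past the threshold in edgeR (4 higher at an unadjusted p of at most 0.05, and 3 with DESeq2). Of all genes tested, 23.6% passed that unadjusted p in either direction, and DESeq2 gave 9.24% of its genes as higher. These shares also apply to the lists below. Fibroblast genes had 14.5 to 31.6 against 14.7 to 63.5 CPM, with 0 of 7 past it (2 at an unadjusted p of at most 0.05, and 0 with DESeq2). Of 5 tested endothelial genes Pecam1 and Cdh5 rose (log2 fold changes 1.89 and 4.11), beside the 7.71% of all genes. DESeq2 gave 3 as higher, and 3 were higher at an unadjusted p of at most 0.05. Cdh5 had 53, 11 and 5 reads in control and had enough reads to be tested only through its Dnmt1Δ/Δep libraries. Kdr (log2 fold change −0.16, edgeR adjusted p = 0.80) and Tek (0.58, adjusted p = 0.41) did not pass, and Emcn had too few reads to be tested. The list summed to 5.36 to 17.6 against 15.1 to 23.6 CPM. Cldn5, the claudin that defines endothelial junctions, had at most 1 read in any library. Of 3 tested leukocyte genes Itgam and Csf1r rose (2 with DESeq2, and 3 at an unadjusted p of at most 0.05), beside the 7.71% of all genes, with list sums of 0.275 to 1.01 against 2.52 to 4.41 CPM. The other 4 genes of the list had too few reads to be tested. Ptprc (CD45) had 0, 0 and 2 reads in control and 12, 1 and 0 reads in Dnmt1Δ/Δep replicates 1, 2 and 3. Lyz2 had 1, 0 and 1 against 6, 0 and 2 reads, and Cd3e had at most 2 reads in any library. Cd207 of Langerhans cells had 1 read in 1 library and 0 in the other 5. The part of these lists in the differences of the tight junction genes was not tested.

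Genes whose levels followed the widest-ranging of the 9 genes most closely were sought among 9310 tested genes with a mean of at least 10 CPM, by Pearson's r of log2 CPM over the 6 libraries. For Cldn7, which ranged over 4.24 log2 units, these were Mdm2 (r = 0.9996) and Uaca (r = 0.997). Cldn3, with a range of 3.63 log2 units, was closest to Btbd19 (r = 0.998) and Plet1 (r = 0.994), and Cldn23, with 2.95, to Npnt (r = 0.996) and Zfand2a (r = 0.996). The log2 fold changes of these partners lay between 0.29 (Mdm2) and 0.80 (Npnt), below those of the 3 claudins. The 6 points of each correlation share their libraries and the group difference, and the values are a description of these libraries only.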

How the data were processed

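Keratinocyte cultures of 3 control and 3 Dnmt1Δ/Δep mice gave 6 poly(A)-selected RNA libraries. To make the gene table, the authors removed adapters with cutadapt and ribosomal reads with Bowtie2, aligned the rest with STAR and counted with HTSeq in union mode. The deposited table holds unnormalized counts, and 0 of its values were not whole. The methods name a human build for the alignment index and RefSeq genes, whereas the table lists mouse Ensembl identifiers and the submitters' notes name GRCm38. The 5 entries that name no gene held 8.73% to 12.9% of reads and were left out. Of 43629 identifiers, 42462 (97.3%) matched a gene of GENCODE M21 on GRCm38, which gave symbols, positions and exon lengths. The repeat table and the tables of the authors' own comparisons (fold changes, p-values and normalized counts) were not used. Both edgeR and DESeq2 appear in the methods.

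The quasi-likelihood test of edgeR was run on all genes passing filterByExpr (minimum counts of 10 and 15), with TMM factors of 0.980 to 1.02 and Benjamini-Hochberg adjustment over the 16829 genes tested. Each SE was derived by dividing the absolute log2 fold change by the root of F. CPM use filtered library sizes times TMM factors, and RPKM divide these by the merged exon length. P-values set the group difference against the spread between these libraries, and except with the replicate block they do not use the pairing by lane. Intervals of the fold are 95% intervals of the fit, and a floor of 3 reads covers counting error only. Alternatives were DESeq2's Wald test without shrinkage, upper-quartile factors, no filter, a mean of at least 1 RPKM, the replicate block and each library left out. Scripts were tested on simulated data with known changes, where 8 of 197 calls of edgeR and 32 of 226 calls of DESeq2 were false. The software was edgeR 4.0.16 and DESeq2 1.42.0 in R 4.3.3, and pandas 2.3.3 and matplotlib 3.10.9 in Python 3.11.15.

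The replicate numbers pair the libraries: same-numbered libraries share a flow-cell lane in the table's headers, and their deviations from the group means correlated over 16829 genes (r = 0.43, 0.28 and 0.30 for replicates 1, 2 and 3).

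The 9 genes, the lists of further genes and the markers were chosen with earlier results of these data known. Named besides the 9 genes are every further tight junction gene past an adjusted p of 0.05, otherwise at most the 2 most abundant of a list, at most 3 genes per marker list, the 2 most similar genes for the 3 genes with the largest range, and Dnmt1. Cldn15, Cldn5, Cd207, Ptprc, Lyz2, Cd3e, Kdr, Tek, Emcn, Krtdap and the genes of the closing observations were chosen after their values were seen. Cldn25, Cldn26, Cldn34c5 and Cldn34c6 were not matched, and some genes of the lists are not reported here. Promoter windows came from a RefSeq table and protein sequences were not used here.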

Additional observations from a re-analysis of the deposited data

How the results depend on the processing

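Of 163 values of 15 named genes under 11 settings, 144 kept their direction and side of the threshold, 11 lost the threshold, 6 gained it and 2 changed sign. Those 2 were Cldn8 without Dnmt1Δ/Δep replicate 1 (0.02) and without control replicate 3 (0.14), in a range of −0.58 to 0.14 over the 6 omissions. The 1080 genes called in all at 2-fold became 429 with a mean of at least 1 RPKM and 574 to 1363 with 1 library left out. With DESeq2, 1 of the 9 genes was lower at the threshold (Cldn1) where edgeR gave 0. Over the 6 omissions, the number of the 9 genes higher at the threshold was lowest at 1 on omitting control replicate 2 and highest at 5 on omitting control replicate 1, which added Cldn7 and Cldn12. The number at 2-fold was 1 to 3, the further tight junction genes higher were 2 to 6, and those at 2-fold were 2 to 4, with the lowest values again on omitting control replicate 2. The median of all genes stayed between −0.029 and 0.026 on the log2 scale under every setting run.

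With the replicate block, the pairing of libraries by lane, 5 of the 9 genes were higher at the threshold in place of 3, the further tight junction genes higher were 6 in place of 4, and it changed no other call among the 15 named genes. Cldn8 and Cldn18 had no value with a mean of at least 1 RPKM, since neither reached that level. Depth limits the control levels of Cldn6, Cldn18 and Cldn7, which rest on 3, 5 and 34 reads in control replicate 3.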

Other observations

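The following claudin genes, chosen after their values were seen, lie near a claudin described above and had few reads. Cldn13, 29.6 kb from Cldn4, had reads in 1 control library (1 read) and 1 Dnmt1Δ/Δep library (5 reads). Cldn16, 91.3 kb from Cldn1, had 2 to 5 reads per control and 3 to 8 reads per Dnmt1Δ/Δep library, and Cldn17, 53.8 kb from Cldn8, had at most 4 reads in any library. Cldn9 lies 137 bases from Cldn6 and had 1, 0 and 0 reads in control replicates 1, 2 and 3 against 13, 4 and 5 reads in the Dnmt1Δ/Δep replicates, where Cldn6 had 1311, 1017 and 586.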
